A study of Mus musculus with 16 samples.

Results

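Eph receptors are tyrosine kinases of the cell surface, and their ligands, the ephrins, are held on the surface of neighbouring cells. Of the 45513 genes in the colon count files, 10 genes of this system were taken by name, with earlier results of these data known. They were 4 B-class receptors (Ephb2, Ephb3, Ephb4 and Ephb6), 3 A-class receptors (Epha1, Epha2 and Epha4), 2 B-class ephrins (Efnb1 and Efnb2) and 1 A-class ephrin (Efna1). Colon epithelium was taken from 8 adult Atoh1(WT)CreERT2; R26RtdTom mice on a C57BL/6 background, which per the study's methods carried 2 copies of the Atoh1 allele and 1 of the reporter. Both the tdTom+ and the tdTom- cells of every mouse were sequenced, which gave 16 libraries. All mice carried the same alleles and received tamoxifen at 1 mg per day on 3 days per the sample labels, so that there was no untreated group. The CreERT2 sits downstream of the Atoh1 coding sequence at its own locus, and tamoxifen lets it switch on the red reporter tdTomato in cells that express Atoh1, the transcription factor needed for secretory cells. EpCAM+ live cells were then sorted into reporter-positive (tdTom+) and reporter-negative (tdTom-) cells, and the comparison asks how these 2 populations differ. The tdTom- population is a mixture of the remaining epithelial cell types and not 1 cell type. It can include secretory cells, since the study reported that mature enteroendocrine cells no longer express Atoh1.

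When an Eph receptor meets an ephrin, a signal runs forward into the cell with the receptor and in reverse into the cell with the ephrin, and the usual outcome is that the cells repel each other or hold their boundary. A-class ephrins are tied to the membrane by a lipid anchor and B-class ephrins span it, and receptors bind mostly within their class. In the intestine, EphB2 and EphB3 are Wnt targets of the crypt base, ephrin-B1 and ephrin-B2 lie towards the surface, and the opposed gradients are known for keeping cell types at their positions along the crypt axis.

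In tdTom+ cells the transcripts of Ephb3 and Ephb4 were more abundant than in tdTom- cells, and those of Ephb6, of all 3 A-class receptors and of all 3 ephrins were less abundant. Thus 2 of the 10 genes were higher and 7 were lower at an adjusted p under 0.01 (edgeR, quasi-likelihood test on counts, Benjamini-Hochberg over 15841 genes). Of all genes tested 51.0% passed this threshold, 25.5% as higher and 25.5% as lower in tdTom+ cells. The remaining gene, Ephb2, missed the threshold narrowly. In the blocked fit, which pairs both sorted populations of each animal, Ephb2 was also called, and the counts became 3 higher and 7 lower against 28.4% and 28.9% of all genes. Each of the 10 genes moved in 1 direction in 8 of 8 mice. Many genes of the other lists examined did the same, and the share over all genes tested was not counted. Levels are given as counts per 1000000 counts of the library (CPM, with TMM-scaled library sizes). The median log2 fold change of the 10 genes was -0.93, against 0.004 over all genes tested.

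**Figure D1:**
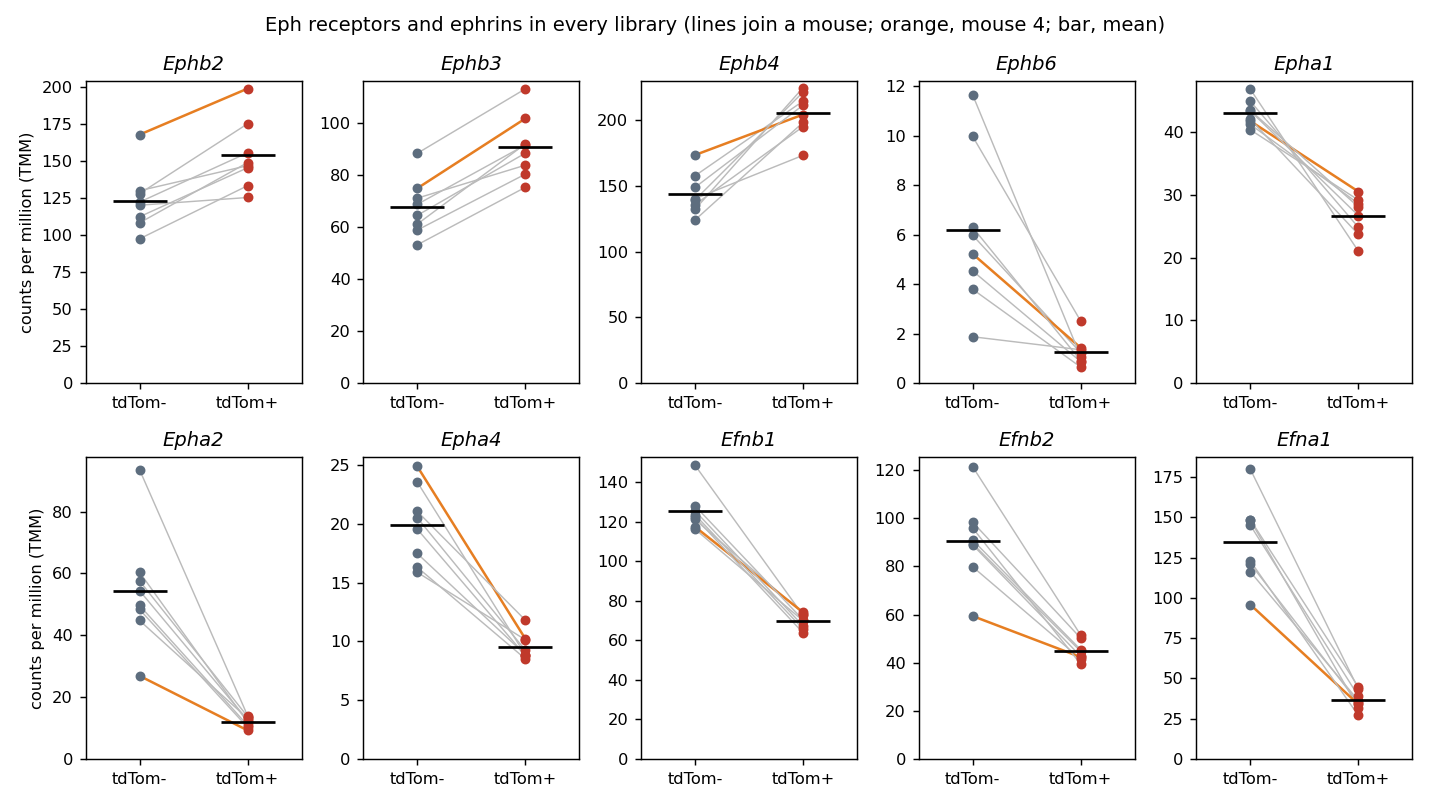
CPM (vertical axes, from 0) of the 10 genes in tdTom- (grey) and tdTom+ (red) libraries, with a line joining the populations of each of 8 mice, orange for mouse 4, and a black bar at the mean. The lines rise for Ephb2, Ephb3 and Ephb4 and fall for the other 7 genes. For the 6 genes from Epha1 to Efna1 no tdTom+ point reaches the lowest tdTom- point, as in 15.3% of all genes tested.

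The libraries held between 16482530 and 45791503 counts, and the deepest was the tdTom- library of mouse 4, without which no tdTom- library passed 20668605. The goblet markers were higher in 8 of 8 genes, with a summed level of 51182 to 106942 CPM in tdTom+ and 2263 to 8807 CPM in tdTom- libraries. The 6 epithelial markers were present in every library, and 1 was higher and 5 were lower in tdTom+ cells. Enteroendocrine markers were lower in 9 of 10 genes (summed level 288.6 to 769.5 CPM against 1399 to 4104 CPM), tuft cell markers in 6 of 9 tested genes (57.5 to 118 CPM against 109 to 179.8 CPM) and proliferation markers in 5 of 8 genes (525 to 846 CPM against 637 to 1126 CPM). With the mouse as a block, 7 of 8 proliferation markers and 7 of 9 tuft cell markers were lower. Of all genes tested, 25.5% were higher and 25.5% lower without the block, and 28.4% and 28.9% with it. The surface colonocyte genes were lower in 9 of 10 genes, with a median log2 fold change of -4.21 and a summed level of 1010 to 1694 CPM against 3550 to 6820 CPM. Immune markers summed to 6.02 to 12.4 CPM in tdTom+ and 10.5 to 36.7 CPM in tdTom- libraries, and mesenchymal markers to 15.3 to 20.9 CPM and 21.3 to 33.7 CPM. Mitochondrial genes took 2.23% to 6.92% of the counts in tdTom+ and 3.74% to 9.97% in tdTom- libraries, with the tdTom+ library lower in each of 8 mice, and mouse 4 was the lowest of both populations. The part of each of these differences in the changes of the Eph and ephrin genes was not tested. In sorted bulk samples, fewer cells that express a gene and less RNA of it per cell cannot be told apart.

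EphB2 is a kinase-active receptor for B-class ephrins that marks the lower crypt. Ephb2 was measured at 125 to 199 CPM (median 148) in tdTom+ libraries and at 97.4 to 168 CPM (median 121) in tdTom- libraries. The ranges overlapped, and mouse 4 had the highest level of both populations. In each mouse the tdTom+ library was the higher of the 2. The log2 fold change was 0.32 (standard error, SE, 0.10; edgeR adjusted p = 0.0106), and the within-mouse differences in log2 CPM ran from 0.06 in mouse 3 to 0.46 in mouse 8. Blocking on the mouse left the estimate at 0.32 and brought its SE down to 0.05 (edgeR adjusted p = 3.49e-05), and leaving mouse 4 out gave 0.35 (edgeR adjusted p = 3.96e-04).

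EphB3 acts beside EphB2 in crypts and binds the same ligands. Ephb3 stood at 75.4 to 113 CPM (median 90.1) in tdTom+ and 53.2 to 88.5 CPM (median 66.7) in tdTom- libraries. Mouse 1 was highest and mouse 8 lowest in both populations, so the ranges overlapped although the difference within mice varied little, between 0.24 and 0.59. The log2 fold change was 0.43 (SE 0.095, edgeR adjusted p = 6.24e-04). It kept its size in mice 5 to 8 alone, at 0.44 (adjusted p = 7.22e-04), and in mice 1 to 3 alone it was 0.41 with an adjusted p of 0.0297, which missed the threshold of 0.01. These subsets follow the series of the mouse numbers, of which mouse 4 forms a series of its own.

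EphB4 is best known as the receptor for ephrin-B2 on veins, and it is also made by intestinal epithelium. Ephb4 was measured at 173 to 225 CPM (median 208) in tdTom+ and 124 to 173 CPM (median 139.6) in tdTom- libraries. The populations met at their edges, where the lowest tdTom+ library (mouse 7, 173.1 CPM) lay just under the highest tdTom- library (mouse 4, 173.3 CPM). The log2 fold change was 0.51 (SE 0.07, edgeR adjusted p = 1.98e-06), a 1.43-fold higher level. Endothelial markers summed to 0.77 to 1.36 CPM in tdTom+ and 2.12 to 4.08 CPM in tdTom- libraries, with 5 of 6 genes under 1 CPM on average and none at 0 in all libraries.

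EphB6 lacks kinase activity and signals through the receptors it joins. Ephb6 was rare and went the other way, at 0.65 to 2.51 CPM (median 1.15) in tdTom+ and 1.88 to 11.7 CPM (median 5.61) in tdTom- libraries. It rested on 12 to 269 reads per library and varied most between mice, with a within-mouse difference of -0.45 in mouse 1 and -3.33 in mouse 5. Mouse 1 had the lowest tdTom- level, under the highest tdTom+ level of mouse 7, so the ranges overlapped. The log2 fold change was -2.31 (SE 0.32, edgeR adjusted p = 2.45e-06).

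No difference in change between the 3 receptors with kinase activity passed the test after adjustment. The change of Ephb2 was smaller than that of Ephb4 by 0.19 on average (-0.46 to 0.01 over mice, exact sign-flip test, two-sided, p = 0.0312, adjusted over 10 pairs of genes of the same class p = 0.0521). The differences of Ephb2 from Ephb3 (mean -0.11, -0.35 to 0.10) and of Ephb3 from Ephb4 (mean -0.09, -0.31 to 0.21) had adjusted exact p-values of 0.0781 and 0.1953. Leaving out mouse 1 brought Ephb2 against Ephb3 to -0.14 (adjusted exact p = 0.0260), and leaving out mouse 1 or mouse 4 brought Ephb2 against Ephb4 to -0.22 (adjusted exact p = 0.0446). Ephb6 differed from each of the 3, by 2.45 to 2.65 on average, with the smallest exact p that 8 mice allow (0.0078, adjusted p = 0.0156). In size, the changes of Ephb2, Ephb3 and Ephb4 were common in these data, since 48.3%, 58.9% and 65.5% of all genes tested had a smaller absolute log2 fold change. For Ephb6 that share was 95.2%.

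**Figure D2:**
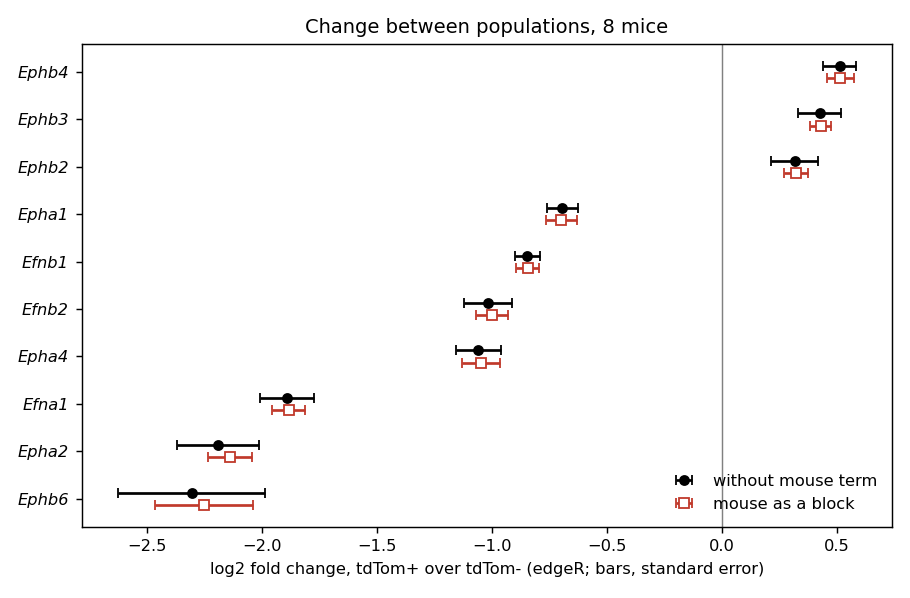
Log2 fold change of tdTom+ over tdTom- cells (horizontal axis) of the 10 genes with its standard error, from edgeR without a mouse term (black circles) and with the mouse as a block (open red squares), over 8 mice. Ephb2, Ephb3 and Ephb4 lie between 0.32 and 0.51 and the other 7 genes between -0.69 and -2.31, and the block narrows the bars of Ephb2 from 0.10 to 0.05.

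The start regions of the 3 B-class receptors with a positive log2 fold change are shown because these genes moved together. Of the promoters in the RefSeq table (GRCm38.p6, 250 bases before to 50 bases after the start of transcription), all 10 genes had a match, with 2 windows for Efna1. They were searched on both strands for CTTTGAT and CTTTGAA, the letters bound by TCF/LEF factors of the Wnt pathway, and for CAGCTG, an E-box of the kind bound by ATOH1. The stretch from base -250 to base -51 is printed in the direction of transcription, with any match in capitals, for the minus strand of chr4:136836063-136836262 (Ephb2), the plus strand of chr16:21204545-21204744 (Ephb3), the plus strand of chr5:137349859-137350058 (Ephb4) and, as the other window with a match, the plus strand of chr4:141300971-141301170 (Epha2).
Ephb2: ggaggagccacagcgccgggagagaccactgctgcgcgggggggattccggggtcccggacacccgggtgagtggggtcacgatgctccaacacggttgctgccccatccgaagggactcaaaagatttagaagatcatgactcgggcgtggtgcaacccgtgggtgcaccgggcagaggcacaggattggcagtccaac
Ephb3: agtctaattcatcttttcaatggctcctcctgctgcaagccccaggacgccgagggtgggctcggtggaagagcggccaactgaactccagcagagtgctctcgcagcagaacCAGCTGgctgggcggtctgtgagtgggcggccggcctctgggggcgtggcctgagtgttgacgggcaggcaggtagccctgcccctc
Ephb4: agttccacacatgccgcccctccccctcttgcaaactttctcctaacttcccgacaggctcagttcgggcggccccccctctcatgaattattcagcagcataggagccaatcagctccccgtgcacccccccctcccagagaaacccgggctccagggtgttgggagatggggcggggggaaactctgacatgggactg
Epha2: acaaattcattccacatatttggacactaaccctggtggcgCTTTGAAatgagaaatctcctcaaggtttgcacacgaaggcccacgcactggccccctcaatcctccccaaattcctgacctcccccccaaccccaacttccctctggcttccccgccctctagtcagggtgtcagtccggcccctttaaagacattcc
The E-box letters occurred once, in the Ephb3 window at base -137, and 16.3% of the 32851 RefSeq promoters held them. The letters CTTTGAA occurred once, at base -209 of Epha2, a gene that was lower in tdTom+ cells, and CTTTGAT in none of the 10 genes. Either TCF/LEF sequence was present in 8.65% of all promoters. A match only describes the letters of the window.

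The A-class receptors Epha1, Epha2 and Epha4 were lower in tdTom+ cells, and in each of them the populations were apart. Of all genes tested, 15.3% had every tdTom+ library under every tdTom- library. Epha1, the founding gene of the family, is expressed in epithelia. Its level was 21.0 to 30.5 CPM (median 27.4) in tdTom+ and 40.4 to 46.9 CPM (median 42.7) in tdTom- libraries. Of those among the 10 genes that were lower, it had the smallest fall, with a log2 fold change of -0.69 (SE 0.07, edgeR adjusted p = 1.67e-08). Epha1 overlaps Zyx, and Ephb4 overlaps Zan, on the opposite strand, and reads were counted by strand.

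EphA2 is an epithelial receptor whose main partner is ephrin-A1. Epha2 was at 9.21 to 13.9 CPM (median 12.1) in tdTom+ libraries and at 26.9 to 93.5 CPM (median 52.0) in tdTom- libraries. The tdTom+ libraries lay close together, and the tdTom- libraries spread from mouse 4 at the low end to mouse 2 at the high end. The log2 fold change was -2.19 (SE 0.18, edgeR adjusted p = 8.75e-10), a 4.57-fold lower level. EphA4 differs from its class in that it binds both A-class and B-class ephrins. Epha4 ranged from 8.51 to 11.8 CPM (median 9.05) in tdTom+ and from 15.9 to 24.9 CPM (median 20.02) in tdTom- libraries. Here mouse 4 was the highest tdTom- library and not the lowest, and the log2 fold change was -1.06 (SE 0.10, edgeR adjusted p = 9.99e-09).

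Within the class, Epha2 fell more than Epha1 in 8 of 8 mice (mean change of Epha1 minus that of Epha2 1.42, 1.08 to 1.89) and more than Epha4 in 8 of 8 mice (Epha2 minus Epha4 -1.08, -1.59 to -0.26), each with an exact p of 0.0078 and an adjusted p of 0.0156. Epha4 fell more than Epha1 in 6 of 8 mice (Epha1 minus Epha4 0.34, -0.18 to 0.83), which did not pass after adjustment (exact p = 0.0469, adjusted p = 0.0670). The make-up of the class shifted accordingly. Epha1 made up 67.2% ± 3.2 (SD, n = 8) of the A-class receptor transcripts per length in tdTom+ and 48.4% ± 5.8 in tdTom- libraries, and Epha2 made up 21.2% ± 3.3 and 41.2% ± 7.7.

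Ephrin-B1, the product of an X-linked gene, binds EphB2 and EphB3 and spans the membrane of more differentiated crypt cells. Efnb1 was measured at 63.9 to 74.2 CPM (median 70.2) in tdTom+ and 116 to 149 CPM (median 123) in tdTom- libraries. The populations were apart, and of the 10 genes Efnb1 had the smallest standard error. Its log2 fold change was -0.85 (SE 0.05, edgeR adjusted p = 2.30e-11). Ephrin-B2 binds EphB4 as well as the other B-class receptors. Efnb2 ranged from 39.4 to 51.5 CPM (median 43.7) in tdTom+ and from 59.4 to 121.5 CPM (median 90.3) in tdTom- libraries. The lowest tdTom- library was that of mouse 4 and the highest that of mouse 2, as for Epha2, and the log2 fold change was -1.02 (SE 0.10, edgeR adjusted p = 2.74e-08). The difference between the changes of the 2 ephrins did not pass after adjustment (mean of Efnb1 minus Efnb2 0.15, -0.17 to 0.38, exact p = 0.0547, adjusted p = 0.0684), and Efnb2 fell more in 7 of 8 mice. Without mouse 4 the mean difference was 0.20 (adjusted exact p = 0.0260).

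Ephrin-A1 is the lipid-anchored ligand of EphA2 and other A-class receptors. Efna1 was at 27.0 to 44.7 CPM (median 35.4) in tdTom+ libraries and at 95.8 to 179.9 CPM (median 134) in tdTom- libraries. The populations were apart, again with mouse 4 lowest and mouse 2 highest among the tdTom- libraries. The log2 fold change was -1.89 (SE 0.12, edgeR adjusted p = 1.55e-11), a 3.71-fold lower level.

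Mouse 4 gave the smallest within-mouse change in 6 of the 10 genes, namely Ephb4, Epha1, Epha2, Efnb1, Efnb2 and Efna1. Without mouse 4, every gene kept its direction, with log2 fold changes from 0.35 (Ephb2) to 0.58 (Ephb4) for the higher genes and from -0.71 (Epha1) to -2.35 (Ephb6) for the lower genes, and all 10 passed the threshold. Across all 16 libraries, after the mean of each population was subtracted, Ephb2 ran against Efnb2 (Pearson r = -0.74), Efna1 (r = -0.71) and Epha2 (r = -0.67), and Epha2 ran with Efnb2 (r = 0.81). Ephb2 ran with Ephb3 (r = 0.56) and Ephb4 (r = 0.53). The 16 points are 2 libraries from each of 8 mice and share each library's depth and cell mixture, so that these values only describe how the libraries were ordered.

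Levels of different genes were compared per length, as RPKM (CPM divided by the exon length in kilobases). This length covers all annotated exons of a gene, from 1830 bases for Efna1 to 12608 for Ephb2, and the transcript made can be shorter. All orders, shares and sums per length rest on it. In tdTom- libraries the order was led by Efna1 at 73.6 ± 14.2 RPKM (mean ± SD, n = 8), Efnb1 at 36.4 ± 2.9 and Ephb4 at 31.0 ± 3.4. Then followed Efnb2 (21.0 ± 4.0), Epha1 (13.2 ± 0.64), Epha2 (11.6 ± 4.0), Ephb3 (10.8 ± 1.7), Ephb2 (9.77 ± 1.7), Epha4 (2.47 ± 0.41) and Ephb6 (1.64 ± 0.85). The ranges of neighbours in this order overlapped except between Efna1 and Efnb1 and between Ephb2 and Epha4. In tdTom+ libraries Ephb4 led alone at 44.2 ± 3.6 RPKM. Efnb1 (20.2 ± 1.1) and Efna1 (19.9 ± 3.2) came next and could not be ordered, since Efnb1 was the higher in 4 of 8 libraries. From Efna1 through Ephb3 (14.5 ± 1.9), Ephb2 (12.2 ± 1.9), Efnb2 (10.3 ± 0.98) and Epha1 (8.13 ± 0.97), each overlapped with the next, and Epha1 was apart from Epha2. Below it Epha2 (2.54 ± 0.36), Epha4 (1.19 ± 0.14) and Ephb6 (0.33 ± 0.15) were also apart from each other. Ephb4 was the leading receptor in both populations, and the leading gene by RPKM was a ligand in tdTom- and a receptor in tdTom+ cells. By mean CPM, without the length, Ephb4 also led in tdTom- libraries, at 143.8 against 134.7 for Efna1.

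**Figure D3:**
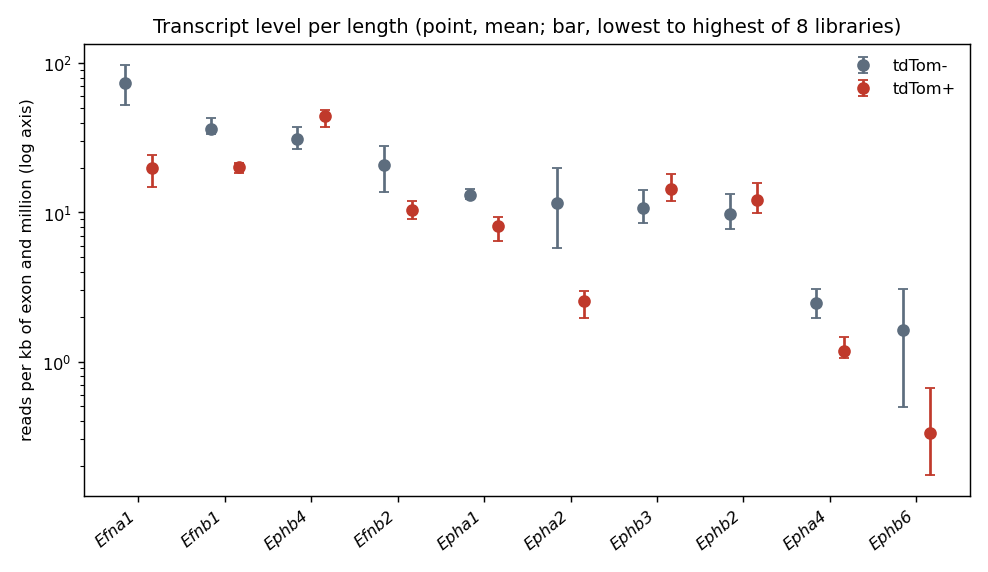
Level per length (RPKM, log axis) of the 10 genes in tdTom- (grey) and tdTom+ (red) libraries, ordered by the tdTom- mean, with points at the mean and bars from the lowest to the highest of 8 libraries. Efna1 falls from 73.6 to 19.9 and Ephb4 rises from 31.0 to 44.2, which puts it first in tdTom+ libraries.

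Summed over each class, with the other family members included, receptor transcripts outnumbered ephrin transcripts of the B class in every tdTom+ library. The 5 B-class receptor genes summed to 71.2 ± 5.3 RPKM in tdTom+ and 53.2 ± 5.9 RPKM in tdTom- libraries, and the 3 B-class ephrin genes to 30.7 ± 1.3 and 57.6 ± 6.7 RPKM. The ratio of receptor to ephrin transcripts was 2.32 ± 0.18 in tdTom+ (2.12 to 2.62) and 0.94 ± 0.20 in tdTom- libraries (0.66 to 1.33), without overlap. For the A class both sums were lower in tdTom+ cells, receptors with 12.1 ± 1.0 against 27.6 ± 4.5 RPKM and ephrins with 26.1 ± 3.5 against 84.3 ± 13.8 RPKM. Ephrin transcripts outnumbered receptor transcripts there in both populations, with ratios of 0.47 ± 0.06 in tdTom+ and 0.33 ± 0.05 in tdTom- libraries that overlapped only slightly (0.40 to 0.56 and 0.26 to 0.41).

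**Figure D4:**
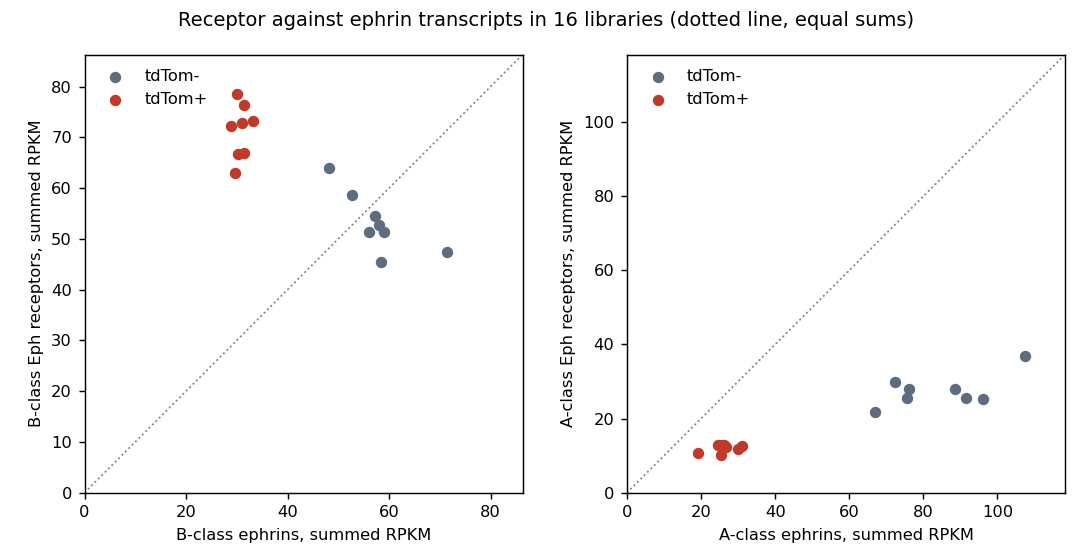
Summed RPKM of Eph receptors (vertical axes) against summed RPKM of ephrins (horizontal axes) for the B class (left) and the A class (right) in 8 tdTom- (grey) and 8 tdTom+ (red) libraries, with a dotted line where the sums are equal. In the B class the tdTom+ libraries lie above the line with ratios of 2.12 to 2.62, and in the A class all 16 libraries lie under it.

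Of the 12 other Eph and ephrin genes of the mouse, 5 had enough counts to be tested, and 4 of these were lower and none higher in tdTom+ cells, against 25.5% lower over all genes tested. Ephrin-A3 and ephrin-A4 are further lipid-anchored ligands. Efna3 averaged 1.89 ± 0.64 CPM in tdTom+ libraries and 6.10 ± 2.4 CPM in tdTom- libraries (log2 fold change -1.71, SE 0.24, edgeR adjusted p = 3.41e-06). Efna4 averaged 8.31 ± 1.4 and 12.7 ± 2.9 CPM in the same order (log2 fold change -0.62, SE 0.13, edgeR adjusted p = 3.70e-04). Efna1, Efna3 and Efna4 lie close together on the minus strand of chromosome 3 (GRCm38), 32756 and 10424 bases apart, and all 3 were lower in 8 of 8 mice. Epha7, a receptor known mainly from the nervous system, was at 1.53 ± 0.43 and 2.44 ± 0.48 CPM (log2 fold change -0.67, SE 0.17, edgeR adjusted p = 0.0018). Efnb3 was close to the detection limit, at 0.57 ± 0.15 and 0.92 ± 0.24 CPM, and its log2 fold change of -0.66 (adjusted p = 0.0099, edgeR) lost its call once the mouse was blocked (adjusted p = 0.0200). Efna2 was not called (log2 fold change 0.24, adjusted p = 0.5096, edgeR). The genes left untested were Epha3, Epha5, Epha6, Epha8, Epha10, Ephb1 and Efna5, of which Epha6 had no count in any library. A count of 0 allows up to 3 counts, or 0.0655 to 0.182 CPM at these depths.

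Of 28 binding partners and effectors of Eph receptors, 4 were higher and 10 lower, with a median log2 fold change of -0.03. The 14 called genes are a share near the 51.0% of all genes tested, which says nothing particular about these partners. The Src-family kinase Fyn rose from 1.82 ± 0.48 CPM in tdTom- to 5.23 ± 0.96 CPM in tdTom+ libraries (log2 fold change 1.53, adjusted p = 3.64e-08, edgeR). Chn2, which encodes the Rac regulator beta2-chimaerin, had a log2 fold change of 0.50 (adjusted p = 0.0022, edgeR). The guanine nucleotide exchange factors Vav2 and Ngef (ephexin-1) were lower with log2 fold changes of -1.49 and -1.31 (adjusted p = 6.96e-06 and 2.28e-11, edgeR). Of 9 tested partners of the ephrin-B tail, 1 was higher and 4 were lower (median -0.29), and with the mouse blocked 6 were lower, Ptpn13 and Cldn4 being the added genes. Over all genes tested, 51.0% were called without the block, and with it 28.4% were higher and 28.9% lower. The higher one was Sdcbp, the PDZ protein syntenin-1, with 300.2 ± 24.02 against 209.8 ± 11.9 CPM (log2 fold change 0.52, adjusted p = 1.64e-07, edgeR). The PDZ protein gene Grip1 and the polarity gene Pard6b had the largest falls, with log2 fold changes of -1.35 and -1.31 (adjusted p = 1.67e-06 and 4.34e-08, edgeR).

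Eph receptors and ephrins are also removed by proteases that cut them at or in the membrane. Of 8 such protease genes, 2 were higher and 3 lower (median 0.02), against 25.5% in each direction over all genes tested, so that the number of calls is not a result about them. Mmp7, the secreted metalloprotease matrilysin, went from 0.91 ± 0.32 CPM in tdTom- to 5.998 ± 2.5 CPM in tdTom+ libraries (log2 fold change 2.75, adjusted p = 1.60e-08, edgeR), and the gamma-secretase gene Psen2 had a log2 fold change of 0.26 (adjusted p = 0.0078, edgeR). The intramembrane protease gene Rhbdl2 and the gamma-secretase gene Aph1a were lower, with log2 fold changes of -0.97 and -0.33 (adjusted p = 1.64e-07 and 1.01e-05, edgeR). The call of 2 higher genes became 1 in most fits that left out a mouse.

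Ephb2 and Ephb3 are counted among the Wnt targets of the crypt base, and 16 other genes of that kind were examined. Of these, 3 were higher and 6 lower (median -0.27), a number of calls near the 51.0% of all genes tested. The Wnt target Tnfrsf19 and the crypt transcription factor gene Sox9 had log2 fold changes of 1.81 and 0.62 (adjusted p = 9.89e-09 and 3.66e-06, edgeR). Of the lower genes in this list, Ascl2 and Lgr5 had the largest falls, with log2 fold changes of -0.79 and -0.71 (adjusted p = 0.0017 and 5.32e-06, edgeR). Without mouse 1, or with mice 5 to 8 alone, the number of lower genes was 3. The surface colonocyte genes, which lie where ephrin-B1 is known to be high, had their largest falls in Aqp8 and Car4, a water channel and a carbonic anhydrase, with log2 fold changes of -5.18 and -4.98 (adjusted p = 5.59e-15 and 2.50e-15, edgeR).

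**Figure D5:**
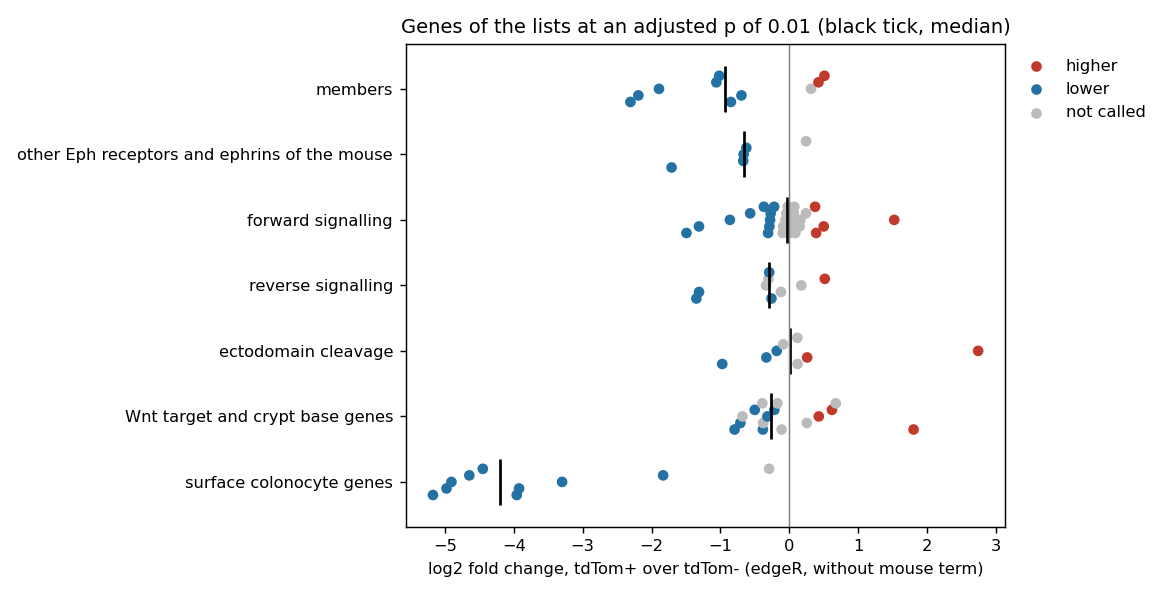
Log2 fold change of tdTom+ over tdTom- cells (horizontal axis) of each tested gene in 7 lists (rows), red where higher, blue where lower and grey where not called at an adjusted p of 0.01, with a black tick at the median. The 10 Eph and ephrin genes have a median of -0.93, the receptor partners a median of -0.03 and the surface colonocyte genes a median of -4.21.

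The genes whose log2 CPM was most alike over the 16 libraries were taken as a description of each gene. For Ephb2 they were Nfix, Lrp5 and Arhgef28 (Pearson r = 0.96, 0.96 and 0.94, and 0.93, 0.93 and 0.90 after the population means were subtracted), for Ephb3 they were Josd1, E130308A19Rik and Ttyh3 (r = 0.94, 0.94 and 0.93), and for Ephb4 they were Cited4, Mpzl1 and Rtkn (r = 0.96, 0.95 and 0.95). The most alike genes of Epha2 were Sema4b, Gprc5a and Cldn23, each with r = 0.99. Rhog, Fcho1 and Gm2574 were closest to Epha1 (r = 0.98, 0.97 and 0.97) and Pbld2, Sult1a1 and Slco2b1 to Epha4 (r = 0.98, 0.97 and 0.97). Gm3336, Mpst and Erbb2 were closest to Efnb1 and Plin2, Ctss and Cyp3a13 to Efna1 (each r = 0.99), and Unc5b, Fosl2 and Mier3 to Efnb2 (r = 0.99, 0.98 and 0.98). For the rare Ephb6 they were Krt84, Vsig1 and Sptbn1 (r = 0.95, 0.94 and 0.94). After the population means were subtracted, the r of the genes most like the other 9 lay between 0.67 and 0.91. All of these values rest on 8 mice with 2 libraries each.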

How the data were processed

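Sorted tdTom+ and tdTom- colon cells of 8 mice were sequenced by the authors (TruSeq Stranded mRNA, single-end). Per the labels, reads were aligned with TopHat2 2.1.1 to GRCm38.p3, and per the file headers, primary alignments on the reverse strand were summed over exons of each gene with featureCounts 1.5.0-p1. The labels name Subread 1.5.2 for that step. The deposited values are raw counts per gene, with 1 file per library, and 44585 of 45513 genes had a symbol.

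Groups came from the sample labels and mouse numbers from the titles. Counts were filtered (filterByExpr), scaled by TMM and compared without a mouse term with edgeR 4.0.16 in R 4.3.3 (quasi-likelihood F test, Benjamini-Hochberg over 15841 genes, threshold 0.01). CPM use TMM library sizes, RPKM divide these by exon length, and log2 CPM have a prior count of 2. Pairs of genes were compared by exact sign flips of their within-mouse differences (256 in all, 8 mice). Because both libraries of a number come from 1 animal, the mouse as a block was the main alternative. Deviations from the population means correlated at 0.223 or more within each mouse (mean 0.303) and at 0.168 or less between mice.

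The other alternatives were DESeq2 1.42.0, limma-voom (limma 3.58.1), RLE, upper-quartile and total-count scaling, no filter, at least 10 counts in every library, each mouse left out, mice 1 to 3 or 5 to 8 alone, and the block without mouse 4. The edgeR, DESeq2 and limma-voom fits were tested on simulated counts that held no differences between mice, so that the pairing was not tested. The 10 genes and the gene lists were chosen with earlier results of these data known. Beyond the 10 genes, every called Eph or ephrin gene, the 2 called genes of largest positive and of largest negative change in each other pathway list, and the 3 genes most like each of the 10 were named.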

Additional observations from a re-analysis of the deposited data

Results flagged for a closer look

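In the tdTom- population, Efnb1 stood at 7.218 log2 CPM in mouse 2, against 6.865 to 7.003 log2 CPM in the other 7 mice. Its gap to the nearest library was 0.608 of the range of the population, above the 95% critical value of Dixon's test for 8 samples. Of the 20 sets of 8 libraries examined (10 genes in 2 populations), 1 held such a library, and chance gives about 1. Without mouse 2 the log2 fold change of Efnb1 was -0.81.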

How the results depend on the processing

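Of 190 values of the 10 genes under alternatives, 180 gave the same call, and none changed sign. The 10 exceptions concern Ephb2 and Ephb3. Ephb2 was called with a replicate block for the mouse (log2 fold change 0.321), with DESeq2 (0.322), limma-voom (0.324), RLE scaling (0.318), no filter (0.328), at least 10 counts in every library (0.311), mice 5 to 8 (0.337), and the block without mouse 4 (0.352). Leaving out 1 mouse gave Ephb2 values of 0.301 to 0.353, and only leaving out mouse 4 made it pass. The block changed no other call among the 10 genes. Ephb3 did not pass with mice 1 to 3 (0.407). With mice 1 to 3 alone, the counts that follow were lower. Over all genes, 2546 were called higher and 2559 lower with these mice, against 4032 and 4042 with all mice. Of the 10 genes 1 was higher, of the receptor partners 1 was higher and 5 were lower, and of the other Eph and ephrin genes 1 was lower. Of the ephrin-B partners 2 were lower, of the proteases 1 was higher and 1 lower, and of the Wnt targets 3 were lower. Wnt targets also numbered 3 lower with mice 5 to 8, and 3 to 6 with 1 mouse left out. The higher proteases numbered 1 with total-count scaling and with no filter, and 1 to 2 with 1 mouse left out. The cause of these differences was not tested. Ephb6, with at most 269 counts in a library, had the least precise change, from -1.85 (mice 1 to 3) to -2.63 (mice 5 to 8). With 1 mouse left out, the pairs of genes whose changes differed numbered 5 to 7.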
